A study of Homo sapiens with 6 samples.

Results

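The metallothionein genes of the human ovarian cancer cell line HEYA8 are described here together with MTF1, the transcription factor that switches them on. The 10 genes were chosen by name from the 20061 gene rows of the deposited table: 9 metallothionein genes (MT1A, MT1B, MT1E, MT1F, MT1G, MT1H, MT1M, MT1X and MT2A) and MTF1. The choice was made with the values of this comparison known, so the levels and the authors' q-values below are a description and not independent evidence. The shETS1 group was 3 samples of HEYA8 cells whose hairpin RNA (shRNA) lowers ETS1, the founding member of the ETS transcription factors. The shLuciferase group was 3 samples whose hairpin targets luciferase, an enzyme absent from human cells, and is the control. All 6 samples came from cells that carried a stable lentiviral hairpin construct under puromycin selection, with no further treatment. The sources used here give neither the hairpin sequences nor their number per gene. They also do not say if the 3 samples were separately grown, so the deposited p-values may measure technical spread alone. The table holds 1 FPKM value (sequenced fragments corrected for transcript length and library size) per gene and group, so no spread between samples can be shown, and sequencing depth is unknown.

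Metallothioneins are very small intracellular proteins in which cysteine is the most frequent residue, and the cysteine sulphurs hold zinc, copper and cadmium. Their genes are switched on by zinc and cadmium through MTF1, a zinc-finger factor that binds short promoter sequences called metal response elements, and many are also induced by glucocorticoids and oxidative stress. MT2A and the MT1 genes are widely expressed, MT3 is known mainly from brain and MT4 from stratified epithelia.

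The cysteine codons are shown in capitals in the coding sequences of 4 members, written 5′ to 3′ from the start to the stop codon (GENCODE 29, GRCh38). The first 3 are the most abundant metallothioneins of these cells and MT1B is the member that the authors' test called.
MT2A: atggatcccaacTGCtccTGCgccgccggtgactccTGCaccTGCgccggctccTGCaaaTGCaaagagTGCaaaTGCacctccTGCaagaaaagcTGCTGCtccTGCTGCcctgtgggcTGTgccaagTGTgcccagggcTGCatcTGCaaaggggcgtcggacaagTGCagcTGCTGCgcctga
MT1E: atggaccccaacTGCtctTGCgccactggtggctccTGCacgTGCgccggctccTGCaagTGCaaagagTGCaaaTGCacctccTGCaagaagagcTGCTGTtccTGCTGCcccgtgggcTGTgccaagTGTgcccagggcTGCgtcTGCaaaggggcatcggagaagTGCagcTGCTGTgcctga
MT1X: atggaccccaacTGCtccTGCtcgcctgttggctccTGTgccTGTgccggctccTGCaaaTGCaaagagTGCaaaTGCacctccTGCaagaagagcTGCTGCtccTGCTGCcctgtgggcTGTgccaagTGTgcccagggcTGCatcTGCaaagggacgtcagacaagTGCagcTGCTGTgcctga
MT1B: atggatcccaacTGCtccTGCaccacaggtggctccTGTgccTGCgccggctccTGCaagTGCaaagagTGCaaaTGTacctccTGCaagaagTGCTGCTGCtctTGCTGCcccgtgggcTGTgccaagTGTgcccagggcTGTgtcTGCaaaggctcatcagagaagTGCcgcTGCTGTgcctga
Each of the 9 metallothionein coding sequences had 186 bases with the stop codon, which is 61 amino acid codons. Cysteine took 20 of the 61 codons (32.8%) in 8 of the genes, and 21 (34.4%) in MT1B. MTF1, by contrast, had 21 cysteine codons among 753 (2.79%). Over the 36 pairs of metallothionein genes, the identity of the coding sequences, compared base by base, was between 88.7% and 95.2%, with a median of 91.4%. MT2A differed from MT1G at 9 bases, the closest pair, and from MT1B at 21 bases.

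Such likeness can make short reads hard to assign to a gene. Of all 50-base windows of the principal MT2A transcript, 4.88% also occurred in a transcript from another place in the genome, and the share was 5.34% for MT1E, 15.96% for MT1X, 20.2% for MT1G and 20.4% for MT1H. It was 3.59% for MT1F, 5.76% for MT1A and 7.05% for MT1M. MT1B had no such window. With windows of 100 bases the share fell to 3.36% for MT1H and to 0% for the other 8 genes. Counting transcripts annotated at the same place as well, the share of 50-base windows was 45.1% for MT1X and 21.8% for MT1B, and that of 100-base windows 19.1% for MT1X and 7.83% for MT1B. The sources used here give neither the read length nor the handling of reads that map to several places. By these shares alone, the levels of MT1X, MT1G, MT1H and MT1B are the more uncertain ones. Each share also depends on the length of the principal transcript. That length is between 690 and 829 bases for MT2A, MT1E, MT1F and MT1M, and between 380 and 450 for the other genes. The shares do not weigh the level of the other gene. MT1F shared 50-base windows with the more abundant MT1E and MT1X, and MT1A and MT1M did so with MT1X, so their levels are uncertain too. MT1X and MT1G shared such windows with MT2A, the most abundant metallothionein in both groups.

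Promoter sequence was found for 5 of the 10 genes, and the 250 bases before the transcription start (RefSeq, GRCh38.p14) are printed because the genes share a regulator but differ widely in level. In the metallothionein promoters, capitals mark the core of the metal response element, searched on both strands as TGCACNC or TGCGCNC, with overlapping matches counted once. In the MTF1 promoter, capitals mark the ETS motif CGGAAG.
MT2A: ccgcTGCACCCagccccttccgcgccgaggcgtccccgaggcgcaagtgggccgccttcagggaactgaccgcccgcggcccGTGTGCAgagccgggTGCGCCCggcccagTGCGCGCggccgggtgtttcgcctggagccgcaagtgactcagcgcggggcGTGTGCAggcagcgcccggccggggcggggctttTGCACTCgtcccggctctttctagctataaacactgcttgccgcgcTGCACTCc
MT1X: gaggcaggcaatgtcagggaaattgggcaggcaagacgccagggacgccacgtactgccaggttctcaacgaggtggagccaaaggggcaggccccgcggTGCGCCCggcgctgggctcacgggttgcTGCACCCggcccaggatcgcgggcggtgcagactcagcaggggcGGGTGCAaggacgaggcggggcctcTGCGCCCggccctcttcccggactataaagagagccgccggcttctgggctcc
MT1H: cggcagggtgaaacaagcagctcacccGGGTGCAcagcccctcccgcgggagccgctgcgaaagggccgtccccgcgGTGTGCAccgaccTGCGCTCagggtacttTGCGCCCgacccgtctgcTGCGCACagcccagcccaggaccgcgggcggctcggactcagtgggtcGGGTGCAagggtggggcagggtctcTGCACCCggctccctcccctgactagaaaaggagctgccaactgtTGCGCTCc
MT1B: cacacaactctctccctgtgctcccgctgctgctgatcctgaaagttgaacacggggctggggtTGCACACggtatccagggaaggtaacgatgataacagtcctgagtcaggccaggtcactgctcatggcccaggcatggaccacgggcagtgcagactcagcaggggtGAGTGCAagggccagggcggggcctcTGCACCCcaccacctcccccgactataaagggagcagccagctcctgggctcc
MTF1: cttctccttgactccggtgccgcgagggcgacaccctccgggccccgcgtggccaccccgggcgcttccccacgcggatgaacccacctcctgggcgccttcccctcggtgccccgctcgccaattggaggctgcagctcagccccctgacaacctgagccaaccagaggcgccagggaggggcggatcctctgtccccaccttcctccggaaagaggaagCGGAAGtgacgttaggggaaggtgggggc
The windows are chr16:56608334-56608583 for MT2A, chr16:56682220-56682469 for MT1X, chr16:56669564-56669813 for MT1H and chr16:56651636-56651885 for MT1B, all on the plus strand. That of MTF1 is chr1:37859593-37859842 on the minus strand.

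The MT1H promoter held 8 metal response element cores, that of MT2A 7, that of MT1X 4 and that of MT1B 3. Among 35116 human promoters of the same length, 24.8% held at least 1 core, 1.05% at least 3, 0.208% at least 4 and 0.0228% (8 promoters) at least 7. A core stood from base -53 to base -47 before the start in MT1X, MT1H and MT1B, and from base -54 to base -48 in MT2A. The TATA box letters TATAAA, present in 10.7% of promoters, were found in MT2A, MT1X and MT1B. The AP-1 site TGACTCA, present in 4.20% of promoters, was found in MT2A and in MT1B, with no overlap with a metal response element core. MT4, a gene listed at 0 FPKM in both groups, also had 3 cores and a TATA box. MT1H, with the most cores, stood at 1.03 FPKM in shETS1 and 1.58 FPKM in shLuciferase. The other 3 metallothioneins with a printed promoter had more cores at higher levels, and 4 genes are too few to relate the 2 measures. The ETS motif CGGAAG occurred once in the MTF1 window, from base -29 to base -24, once in that of MT2A, and in 16.5% of all promoters. The shorter ETS core GGAA, which is part of that motif, occurred 7 times in the MTF1 window. It occurred at least 7 times in 4.10% of promoters and at least once in 92.7%. These matches describe letters and are not evidence of binding.

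**Figure D1:**
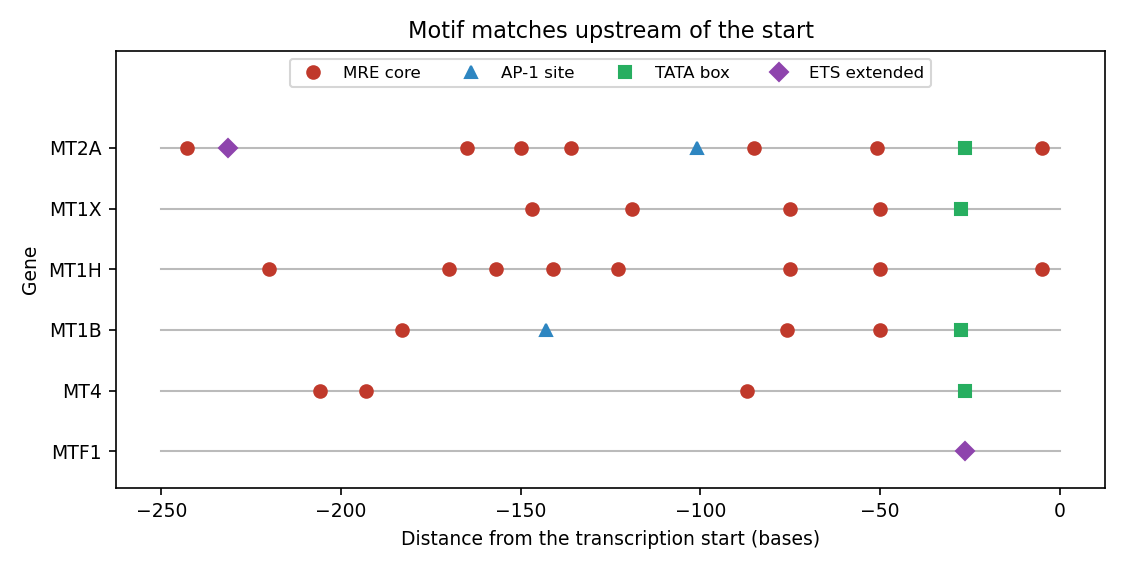
Position of motif matches (points, by motif) in the 250 bases before the transcription start (horizontal axis, in bases) of 6 genes, one per line. MT1H carries 8 metal response element cores and MT2A 7, and MT2A, MT1X, MT1H and MT1B each have a core that ends at base -48 or -47.

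ETS1, the gene targeted by the hairpin, stood at 17.9 FPKM in shETS1 and 41.4 FPKM in shLuciferase, 56.9% lower, and the authors' deposited table lists a q-value of 0.00964 for it. Markers of the labelled ovarian carcinoma were present in part, and the 8 of them summed to 3778 FPKM in shETS1 and 5229 FPKM in shLuciferase. The keratin KRT8 was at 1288 FPKM in shETS1 and 1913 FPKM in shLuciferase, and the lineage factor PAX8 at 76.8 FPKM in shETS1 and 79.7 FPKM in shLuciferase. CDH1 and MUC16 were listed at 0 in shETS1 and below 0.01 FPKM in shLuciferase. The 6 leukocyte markers summed to 1.31 FPKM in shETS1 and 1.36 FPKM in shLuciferase, with PTPRC, TYROBP and CD3E at 0 in both. The 6 fibroblast markers summed to 3.82 FPKM in shETS1 and 1.33 FPKM in shLuciferase, with COL3A1 and DCN at 0 in both. Nearly all of that sum was COL1A1, a fibrillar collagen chain, which rose to 3.75 FPKM in shETS1, against 1.29 FPKM in shLuciferase, with q = 0.00964 in the authors' deposited table. Of 6 endothelial markers 5 were found, and they summed to 127 FPKM in shETS1 and 183 FPKM in shLuciferase, mostly the uncalled TIE1. CDH5, the endothelial cadherin, fell to 5.00 FPKM in shETS1, against 17.6 FPKM in shLuciferase, a log2 ratio of -1.82 with q = 0.00964 in the authors' deposited table. COL1A1 and CDH5 were the only calls in these marker lists. The part of these markers in the metallothionein values was not tested.

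Metallothionein RNA in these cells was almost entirely MT2A, at a level above every other measured gene of the table in both groups. That rank does not cover VIM and GAPDH, which the authors' test had set aside. MT2A, a zinc-inducible metallothionein, had 9487 FPKM in shETS1 and 10587 FPKM in shLuciferase (chromosome 16, 56642478 to 56643409, hg19). The next row in both groups was the ribosomal protein gene RPL41, at 9043 FPKM in shETS1 and 9045 FPKM in shLuciferase. MT2A made up 92.7% of the summed FPKM of the 9 metallothioneins in shETS1 and 93.2% in shLuciferase. The sum itself was 10229 FPKM in shETS1 and 11364 FPKM in shLuciferase, which is 1.41% in shETS1 and 1.55% in shLuciferase of the FPKM of all rows other than VIM and GAPDH, which the authors' test had set aside as having too much data.

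The MT1 genes followed at much lower levels. MT1E had 555 FPKM in shETS1 and 608 FPKM in shLuciferase, so MT2A was 17.1 times as abundant per length in shETS1 and 17.4 times in shLuciferase. MT1X had 156 FPKM in shETS1 and 141 FPKM in shLuciferase. MT1F had 14.3 FPKM in shETS1 and 12.05 FPKM in shLuciferase and MT1A 7.66 FPKM in shETS1 and 8.16 FPKM in shLuciferase. These 5 genes had the same order of levels in both groups, and the closest neighbours in that order were MT1F and MT1A. Without values per sample, no step between neighbours could be set against a replicate spread.

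The remaining metallothioneins had less than 6 FPKM in each group. MT1M had 5.37 FPKM in shETS1 and 2.93 FPKM in shLuciferase. MT1G had 2.50 FPKM in shETS1 and 2.56 FPKM in shLuciferase, and MT1H had 1.03 FPKM in shETS1 and 1.58 FPKM in shLuciferase. MT1B was listed at 0 in shETS1 and at 0.979 FPKM in shLuciferase. MTF1, their common activator (chromosome 1, 38275239 to 38325292, hg19), had 3.40 FPKM in shETS1 and 4.16 FPKM in shLuciferase. In the order of levels, MTF1 lay below MT1M in shETS1 and above it in shLuciferase. Of 13 other family names looked up, 4 were rows of the table. The pseudogene MT1IP had 0.103 FPKM in shETS1 and 0.0945 FPKM in shLuciferase, MT3 and MT4 were listed at 0 in both, and all 3 were untested. MTL5, which encodes tesmin, a testis protein with cysteine-rich repeats, had 1.48 FPKM in shETS1 and 0.922 FPKM in shLuciferase and was tested but not called.

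**Figure D2:**
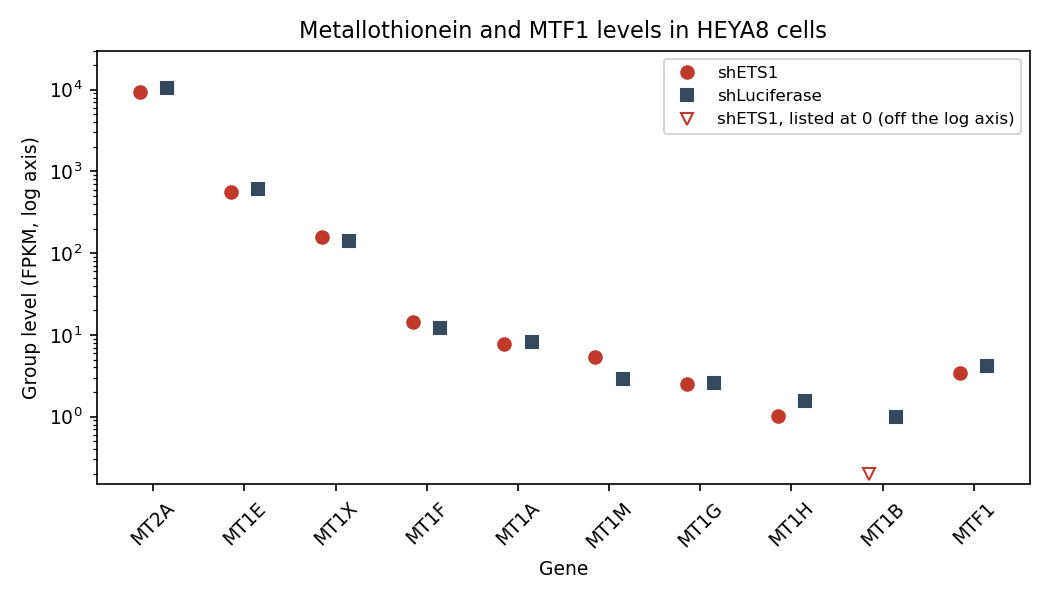
Group level of each gene (vertical log axis, FPKM) in shETS1 (red circles) and shLuciferase (dark squares), 1 deposited value per gene and group, so no error bars can be drawn. MT2A lies at 9487 FPKM in shETS1 and 10587 FPKM in shLuciferase, and MT1B is listed at 0 in shETS1 (open triangle, placed off the log scale).

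The comparison of shETS1 with shLuciferase asks whether metallothionein transcripts differ when ETS1 is lowered. All 10 genes were tested by the authors. With calls made where the deposited q-value did not exceed 0.05, 1 of the 10 genes was called, MT1B, lower in shETS1, and none was called higher. Over all 11952 tested rows 0.812% were called in either direction, 0.544% higher and 0.268% lower. At an unadjusted p under 0.05, again MT1B alone passed, where 6.94% of all tested rows did. Since the genes were chosen with these results known, nothing is read from these counts.

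MT1B, whose coding sequence has the additional cysteine codon shown above, carries p = 5e-05 and q = 0.00964 in the authors' deposited table. That p-value is the smallest in the table and is shared by 62 called rows. MT1B was the only tested row of 11952 with a level of 0 in a group, and its mean of 0.490 FPKM placed it among 342 tested rows below 0.5 FPKM, 4 of which were called. No fold change is given for MT1B against its listed 0, because the table holds no counts and a 0 there can be a failed estimate. Among rows with a mean of at least 1 FPKM, to which MT1B does not belong, no member was called.

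Of the other 9 genes, 6 had lower and 3 higher values in shETS1, and none passed the authors' test. The log2 ratio of shETS1 over shLuciferase, computed from the group levels, was -0.16 for MT2A, -0.13 for MT1E and 0.14 for MT1X. Each of these 3 abundant genes is listed with q = 1.00 in the authors' deposited table. The principal transcripts of MT2A, MT1M, MT1F and MT1E have 63.0%, 62.5%, 59.9% and 59.5% G or C. The median over 9681 expressed rows was 49.8%. Those transcripts have between 690 and 829 bases. The principal transcripts of the other metallothioneins have between 380 and 450 bases, with 50.5% to 52.7% G or C. GC content thus depends on the transcript chosen, and the annotation behind the FPKM values is unknown. Whether other transcripts give the same GC content was not tested. With a trend on GC content removed, a setting chosen after seeing the data, the log2 ratio was -0.02 for both MT2A and MT1E, and moved away from 0 to 1.01 for MT1M and 0.36 for MT1F. For comparison, the central 90% of the 10676 tested rows with a mean of at least 1 FPKM lay between -0.46 and 0.50, with a median of 0.02. The summed metallothionein level had a log2 ratio of -0.15, and 2461 of these rows (23.1%) had a ratio within 0.1 of that value. A single contrast gives no pattern by which to call other genes alike.

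MT1M had the largest ratio of the uncalled genes, 0.88 on the log2 scale or 1.84-fold higher in shETS1. The authors' deposited table lists it with p = 0.10 and q = 0.890, although its ratio was slightly larger in size than the smallest called change in the table, 0.87. Of 3339 other tested rows with a mean within 2 times that of MT1M, 63 (1.89%) had a ratio at least as far from 0. Adding 1 FPKM to both levels brought its log2 ratio to 0.70. MT1H lay at the other end with a log2 ratio of -0.62 and q = 1.00 in the authors' deposited table, and 249 of 2425 tested rows at a similar level (10.3%) were at least as far from 0. The remaining ratios were 0.25 for MT1F, -0.09 for MT1A and -0.03 for MT1G. MTF1 had a log2 ratio of -0.29, with p = 0.293 and q = 1.00 in the authors' deposited table, and 33.4% of 3269 tested rows at a similar level were at least as far from 0. The median log2 ratio over the 10 genes, with MT1B ranked lowest, was -0.11, against 0.02 over all tested rows.

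**Figure D3:**
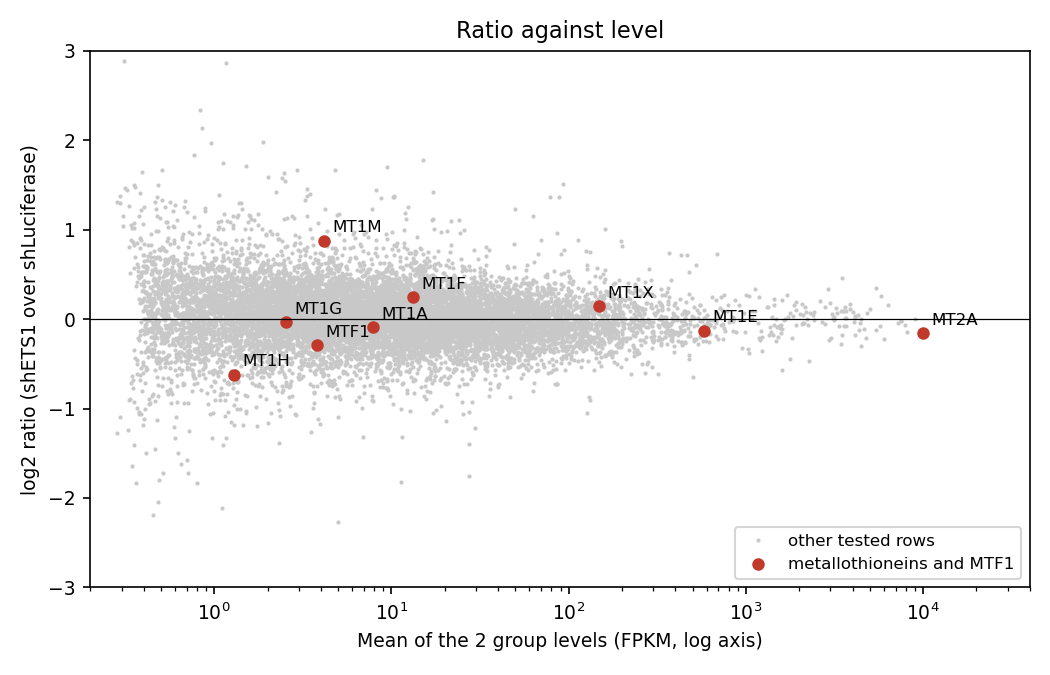
Log2 ratio of shETS1 over shLuciferase (vertical axis) against the mean of both group levels (horizontal log axis, FPKM) for tested rows with a finite ratio (grey) and for MTF1 and 8 metallothioneins (red, named). MT2A, MT1E and MT1X lie at -0.16, -0.13 and 0.14, MT1M at 0.88 and MT1H at -0.62. MT1B, with no finite ratio, and the 3 rows beyond 3 on either side of 0 are not drawn.

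The 9 metallothionein genes lie together within 75.6 kb of chromosome 16 (56642478 to 56718108, hg19), and none of their loci overlaps that of another row in the deposited table. Their ratios did not run in one direction along this stretch. MT1M, with the highest ratio, lies between MT1E at -0.13 and MT1A at -0.09. MT1B, listed at 0 in shETS1, lies between MT1A and MT1F at 0.25. The genes around the cluster were examined within 1000000 bases on either side, where 18 of 32 rows other than the metallothionein family were tested. Of all tested rows 0.812% were called and 6.94% had an unadjusted p under 0.05. Among the 18, none was called in the authors' deposited table and none had an unadjusted p under 0.05, from which nothing is read. Their median log2 ratio was -0.05, with values from -0.44 for RSPRY1 to 0.65 for PLLP, a gene at 0.493 FPKM in shETS1 and 0.313 FPKM in shLuciferase. The nearest tested gene on the MT2A side was BBS2, a ciliary transport gene, at 2.82 FPKM in shETS1 and 2.67 FPKM in shLuciferase. On the MT1X side it was NUP93, a nuclear pore subunit, at 47.2 FPKM in shETS1 and 50.1 FPKM in shLuciferase.

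**Figure D4:**
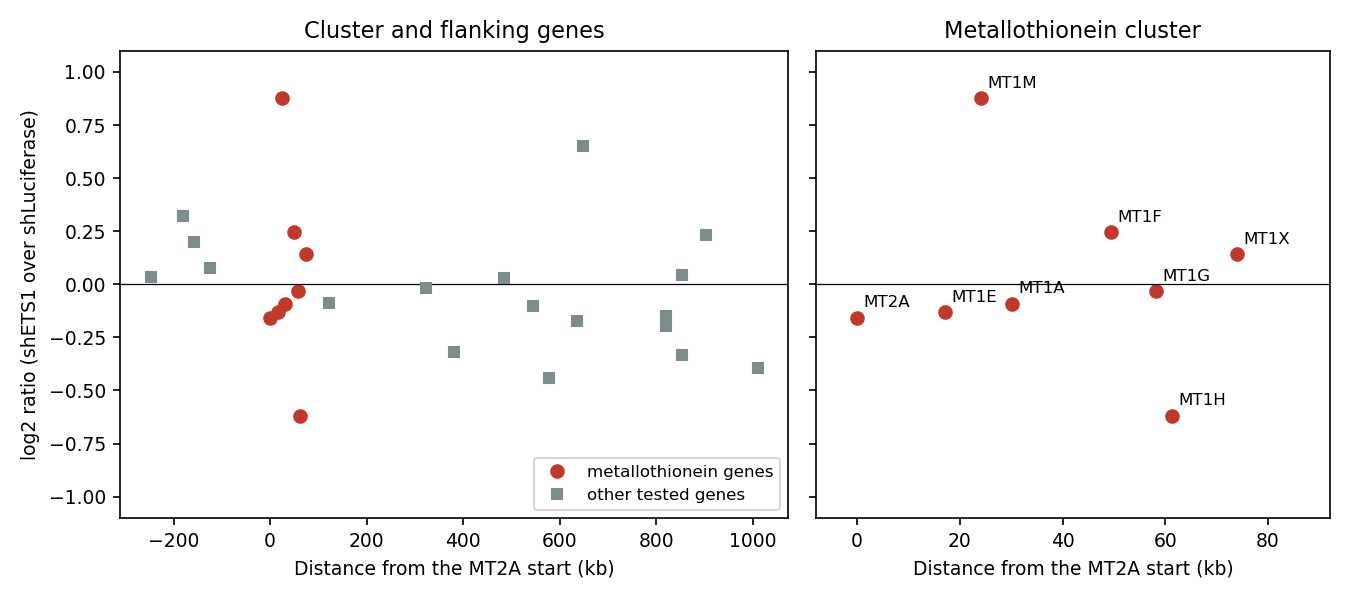
Log2 ratio of shETS1 over shLuciferase (vertical axis) by distance from the MT2A start (horizontal axis, kb), for tested genes flanking the cluster (grey squares, left panel) and the metallothionein genes (red circles, both panels). Ratios in the cluster run from -0.62 for MT1H to 0.88 for MT1M, and MT1B has no finite ratio and is not drawn.

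Genes of zinc transport, which share the metal with metallothioneins, gave no call. Over all tested rows 0.812% were called and 6.94% had an unadjusted p under 0.05, so nothing is read from this in lists so short. Of 5 tested exporters of the SLC30A family, none was called and none had an unadjusted p under 0.05. SLC30A1, the plasma membrane zinc exporter and a known target of MTF1, had 2.72 FPKM in shETS1 and 3.21 FPKM in shLuciferase, a log2 ratio of -0.23. SLC30A5, which loads zinc into the secretory pathway, had 10.4 FPKM in shETS1 and 7.90 FPKM in shLuciferase. The list's median log2 ratio was 0.22. Of 11 tested SLC39A importers none was called, none had an unadjusted p under 0.05, and their median was 0.05. Among the most abundant, SLC39A4 had 76.6 FPKM in shETS1 and 76.5 FPKM in shLuciferase, and SLC39A7, which releases zinc from the endoplasmic reticulum, had 83.6 FPKM in shETS1 and 80.7 FPKM in shLuciferase.

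Copper and iron genes were likewise uncalled. With 0.812% of all tested rows called and 6.94% at an unadjusted p under 0.05, nothing is read from this either. Of 11 tested copper-handling genes, none was called or had an unadjusted p under 0.05, with a median log2 ratio of 0.10. The copper chaperone ATOX1 had 623 FPKM in shETS1 and 626 FPKM in shLuciferase, and the copper/zinc superoxide dismutase SOD1 had 306 FPKM in shETS1 and 274 FPKM in shLuciferase. All 11 iron-handling genes were tested, with no call and no unadjusted p under 0.05. The ferritin chains FTL and FTH1, which like MT2A were among the abundant transcripts, had 4162 and 1257 FPKM in shETS1, against 4523 and 993 FPKM in shLuciferase. The iron list's median log2 ratio was 0.25 over all 11 genes and -0.0046 over the 8 with a mean of at least 5 FPKM.

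Stress pathways that also act on metallothionein genes held a single call. Of 16 tested genes of the NRF2 oxidative stress response, 1 rose, SLC7A11, the cystine importer, with 1.96 FPKM in shETS1 and 0.799 FPKM in shLuciferase and q = 0.00964 in the authors' deposited table. In that list 3 genes had an unadjusted p under 0.05, the others being GCLM, a subunit of the glutathione-synthesis enzyme, at 6.17 FPKM in shETS1 and 3.62 FPKM in shLuciferase, and OSGIN1 at 6.94 FPKM in shETS1 and 10.3 FPKM in shLuciferase, both named after their values were seen. These counts of 1 and 3 among 16 genes stand beside 0.812% called and 6.94% with an unadjusted p under 0.05 over all tested rows. HMOX1, the haem oxygenase that is induced by cadmium along with metallothioneins, had 25.7 FPKM in shETS1 and 26.0 FPKM in shLuciferase. The median log2 ratio of the NRF2 list was 0.16. Of 12 tested heat shock genes none was called, and 1 had an unadjusted p under 0.05, the collagen chaperone SERPINH1, at 41.6 FPKM in shETS1 and 65.6 FPKM in shLuciferase. The median of that list was -0.08. None of the 7 tested glucocorticoid response genes was called or had an unadjusted p under 0.05. Their median was 0.30, and NR3C1, the glucocorticoid receptor, had 9.06 FPKM in shETS1 and 7.34 FPKM in shLuciferase. The counts of the heat shock and glucocorticoid lists stand beside the same 0.812% and 6.94% of all tested rows, and nothing is read from them.

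**Figure D5:**
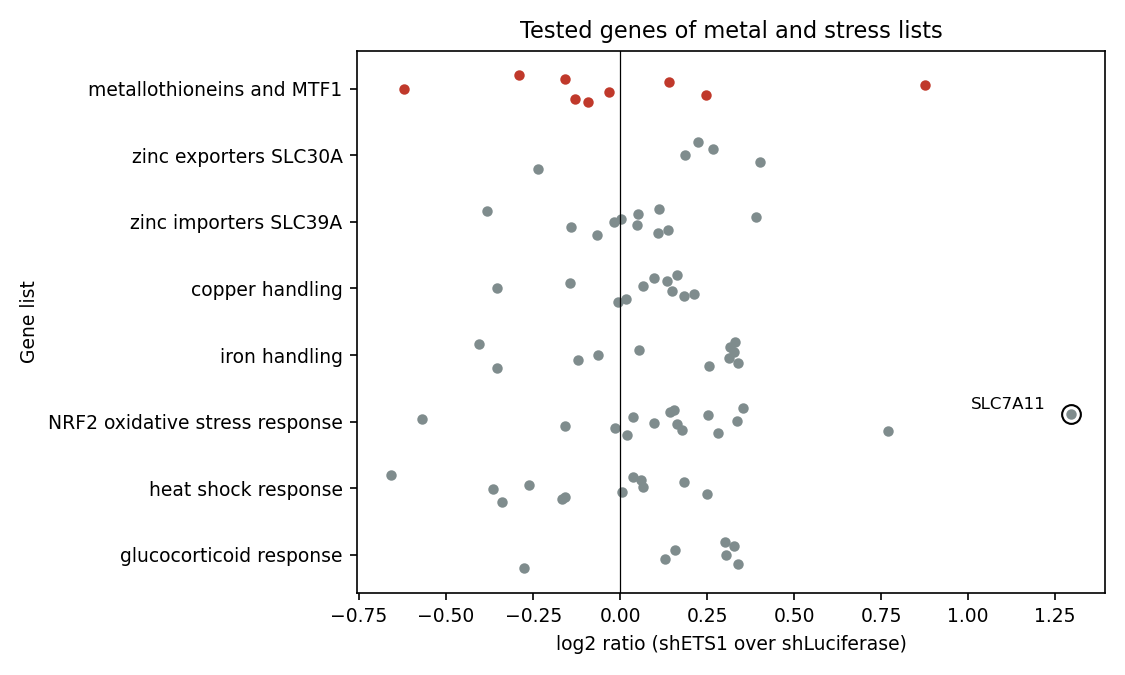
Log2 ratio of shETS1 over shLuciferase (horizontal axis) of each tested gene (points) in the metallothionein group (red) and in 7 metal or stress lists (grey), one list per line. The circled point, SLC7A11 with a q-value of 0.00964, is the only called gene drawn, and MT1B has no finite ratio and is not drawn.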

How the data were processed

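Polyadenylated RNA of 6 HEYA8 samples was copied with random hexamers, sheared as double-stranded cDNA and sequenced, per the labels' protocols, and no strand-marking step is described. Per the submitters' processing notes, the tools were Cufflinks 2.1.1, SAMtools 0.1.18, Bowtie2 2.0.6 and TopHat2 2.0.7, and the build was hg19. The authors deposited 1 table in the layout of a Cuffdiff comparison, which per the file headers gives each gene 1 FPKM value per group, its p-value and its q-value. The sources used here give no annotation, scaling or depth. Ratios were computed here from the deposited FPKM values with Python 3.11.15 and pandas 2.3.3. The test is the authors' own, called at a q-value of 0.05. Starts count from 1. GENCODE 29 gave the transcripts (the principal coding transcript of each gene) and RefSeq the promoters. Motif, adjustment and trend code was tested on simulated data. Members and lists were chosen with earlier results of these data known. Named genes were all members, ETS1, other metallothionein rows, and, per list, called genes and some of the 4 most abundant, with SLC30A1, called neighbours and the nearest tested neighbour on each side. RSPRY1, PLLP, SLC30A5, HMOX1, NR3C1, GCLM, OSGIN1, SERPINH1, RPL41 and the individual markers were named after their values were seen, where the rule did not name them.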

Additional observations from a re-analysis of the deposited data

How the results depend on the processing

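The count of 1 called gene among the 10 was the same at q-value thresholds of 0.01 and 0.1 and at an unadjusted p under 0.05, but was 0 when the p-values were adjusted over tested rows with a mean of at least 1 FPKM, because MT1B, at a mean of 0.490 FPKM, is not among them. The median log2 ratio of the 10 genes, -0.11, stayed between -0.13 and -0.02 with 0.1 or 1 FPKM added, with centring on the median of tested rows, and with a cubic trend on transcript GC content removed. The last setting was chosen after seeing the data, and it moved the ratios of MT2A, MT1E, MT1F and MT1M by over 0.1, to -0.02, -0.02, 0.36 and 1.01. The GC content used is that of the principal transcript, which is longer for these genes than for the other metallothioneins. The setting was not tested with other transcripts. Adding 1 FPKM moved 2 genes by over 0.1, MT1M to 0.70 and MT1H to -0.35. MT1B counts in the medians of the 10 genes. No ratio of its own is given, since its level of 0 in shETS1 gives only a value set by the amount added. The count of 1 called gene over the metal and stress lists was the same after the filter on low values, and that of 0 called neighbours was the same in windows of 500000 and 2000000 bases. No paired analysis was possible because the table holds 1 value per group. For the same reason, leaving out single replicates was not run. The unknown depth limits all levels near 1 FPKM.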
